A study of Mus musculus with 20 samples.

Results

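The genes of 2 neurotrophins (Bdnf and Ntf3) and of 3 of their receptors (Ntrk2, Ntrk3 and Ngfr), 5 in all, were taken by their symbols from the 48709 genes counted in 20 hippocampi of C57BL/6 mice. The strain is given as labelled, and the methods write it as C57BL/6J. Each sex had 5 animals whose dams had inhaled nPM and 5 controls whose dams had breathed filtered air. nPM is nano-sized particulate matter of urban air, given from gestational day 2 until birth on 3 days a week and 5 h each time, at a labelled 300 mg/m3 (the methods have μg as the unit). Females were 17.71 to 18.29 weeks old and males 18.57 to 19.14 weeks, and by the methods males had received EdU, a label of dividing cells, so that sex, age and EdU cannot be told apart. Tissue was the hippocampus of the right hemisphere after perfusion with saline, and the animals had earlier gone through a forced swim test and a glucose tolerance test. The labels give no litter, so littermates cannot be told apart from other animals, and every fit took the animals as independent although exposure was given to dams.

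Neurotrophins are secreted growth factors that support the survival of neurons, the growth of their processes and the plasticity of their synapses. Brain-derived neurotrophic factor (Bdnf) acts mainly through the receptor tyrosine kinase TrkB (Ntrk2), and neurotrophin-3 (Ntf3) through TrkC (Ntrk3), while the low-affinity receptor p75 (Ngfr) binds every mature neurotrophin and also their precursors. In the hippocampus, Bdnf is transcribed in excitatory neurons after synaptic activity, and signaling through TrkB is needed for long-term potentiation.

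Total counts were 22307445 to 35480715 in control females, 19092067 to 29252770 in nPM females, 28026459 to 38663408 in control males and 31189000 to 37378472 in nPM males. Levels are given as CPM, the count scaled to a common library size with TMM factors. Where a gene had no count, the upper limit was 3 counts, equal to 0.0776 to 0.157 CPM across the samples, with counting error as its only source. Marker genes of the hippocampal fields were present, with 8 of 8 genes for dentate granule cells, 6 of 6 for CA1, 6 of 6 for CA2 and 6 of 6 for CA3 among the 19797 genes that passed the filter on low counts. Libraries stood apart in genes of other tissues, most widely in the choroid plexus: the summed level of 8 choroid plexus genes, the epithelium that makes cerebrospinal fluid, was 48.5, 299, 102, 517 and 380 CPM in control females, 8444, 94.6, 58.0, 71.7 and 1830 CPM in nPM females, 98.1, 5126, 40.2, 7512 and 3030 CPM in control males and 90.7, 3114, 5735, 183 and 861 CPM in nPM males. Its most abundant gene by RPKM was Ttr, at 8.81 to 6078 RPKM, and all 8 genes passed the filter. In 8 of 20 samples across 3 of the 4 groups the sum was above that of every control female. The sum of 6 striatum genes was 271 CPM in nPM female 1 and 35.1 to 103 CPM in the other samples. That of 5 blood genes was 56.9 CPM in nPM male 2, 43.0 CPM in control male 1, 30.01 CPM in nPM male 1 and 1.25 to 6.57 CPM in the others. The sum of 8 genes of meningeal fibroblasts ranged from 28.1 to 243 CPM, that of 6 thalamus genes from 28.7 to 131 CPM and that of 6 basal forebrain cholinergic genes from 1.34 to 16.9 CPM.

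All 5 genes passed the filter. By RPKM, the level per exonic length of the gene and library size, the order of mean levels was Ntrk2 (41.6 ± 2.82, SD, n = 20), Ntrk3 (14.0 ± 2.08), Bdnf (7.29 ± 1.36), Ntf3 (3.20 ± 0.941) and Ngfr (0.443 ± 0.118). No neighbours in this order overlapped in any of the 20 samples: RPKM was 37.3 to 50.4 for Ntrk2, 10.5 to 18.5 for Ntrk3, 5.11 to 10.3 for Bdnf, 1.54 to 4.55 for Ntf3 and 0.270 to 0.713 for Ngfr. Ntrk2 had a higher mean RPKM than 95.4% of the genes tested, and Ngfr a higher one than 15.2%. The RPKM of a gene is for all of its transcripts together, and its length is not that of a single transcript. By CPM, without length, the order was the same, and the means of Ntrk2 and Ntrk3 were closer, at 574 and 423 CPM. The later annotation M21, not the M11 of the counts, lists 11 transcripts for Bdnf, 3 for Ntf3, 10 for Ntrk2, 20 for Ntrk3 and 1 for Ngfr. Full-length and truncated forms of TrkB and TrkC cannot be told apart in these values.

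Of the other ligands and receptors, sortilin was higher than all 5 genes by RPKM and the others named here were lower than Ntrk3. Neurotrophin-4 (Ntf5), the other TrkB ligand, passed the filter with 0 to 31 counts per sample. Sortilin (Sort1), which pairs with p75 to bind precursors of neurotrophins, had 79.4 ± 9.26 RPKM, while its relatives Sorcs3, Sorcs2 and Sorcs1 had 9.31 ± 1.63 (SD, n = 20), 5.22 ± 0.576 and 3.78 ± 0.910 RPKM.

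In the main fits exposure moved no gene of the 5 past a threshold, while Ngfr, Ntrk3 and Bdnf had p under 0.05 in some alternatives given with each gene. With both sexes in 1 fit of limma-voom, 0 of 5 genes had p under 0.005, beside 28 of 19797 genes tested (0.141%), and 0 of 5 had p under 0.05, beside 416 (2.1%). In males the counts were 0 of 5 at both thresholds, beside 41 (0.207%) and 848 genes (4.28%), and in females 0 of 5, beside 18 (0.0909%) and 393 genes (1.99%). The interaction of sex and exposure likewise had 0 of 5, beside 43 (0.217%) and 751 genes (3.79%). At an adjusted p under 0.05, limma called 0 genes (0%) in each of these 4 fits, the edgeR quasi-likelihood test 0, 0, 0 and 1, and the DESeq2 Wald test 0, 1, 1 and 0 in the same order. Adjustment was by the method of Benjamini and Hochberg across the genes of a fit, and every test was two-sided. The adjusted p-values of the 5 genes were 0.963 or higher in each of the 4 fits. In addition, each gene was compared between the 5 nPM and the 5 control samples of a sex by an exact permutation test, 10 in all, for which 0.00794 is the smallest possible p.

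**Figure D1:**
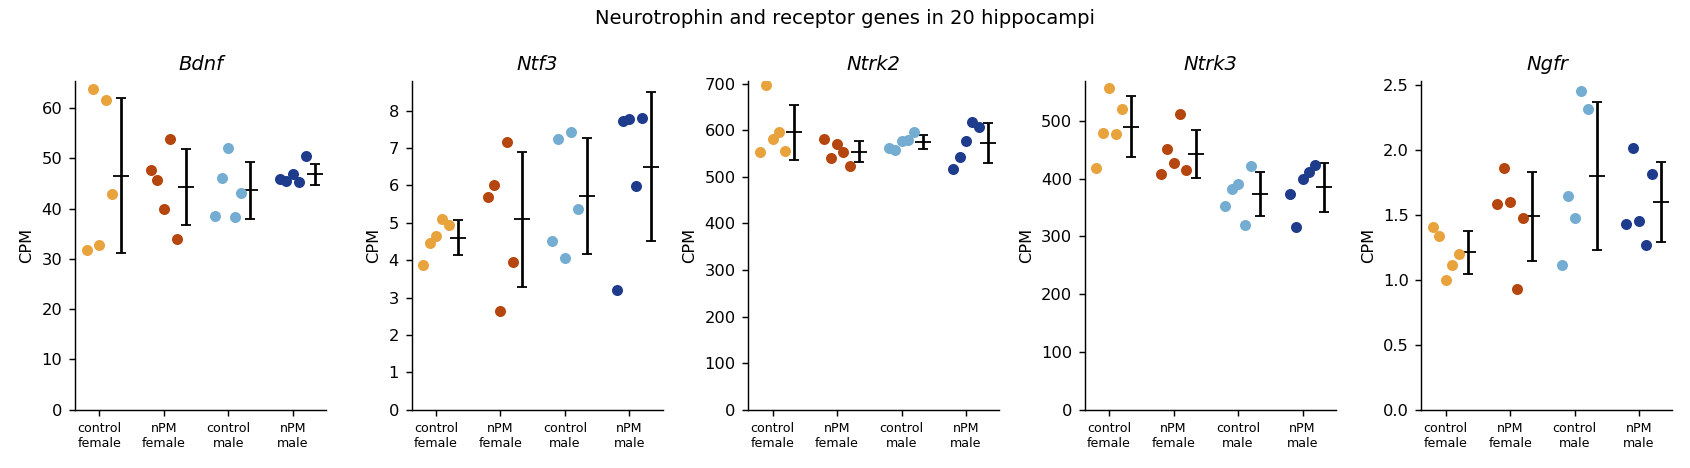
Level of each gene in CPM (y axis, from 0, its own scale in each panel) in the 5 samples of each group (points), with the mean and SD beside them. Ntrk3 lay lower in males, at 317 to 424 CPM, than in most females, at 407 to 557 CPM, and the groups of Bdnf, Ntf3 and Ntrk2 overlapped.

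Bdnf (ENSMUSG00000048482.14, chr2:109674700-109727007, plus strand, 6217 exonic bases, mm10) was the more abundant of the 2 ligands. Its level was 31.8, 63.8, 32.8, 61.6 and 43.0 CPM in control females 1 to 5 and 47.7, 45.7, 39.9, 53.9 and 34.05 CPM in nPM females. It was 38.6, 46.2, 52.0, 38.3 and 43.1 CPM in control males and 46.0, 45.4, 46.9, 45.4 and 50.5 CPM in nPM males. Control females 2 and 4 were the highest of all 20 samples, control females 1 and 3 were the lowest, and the nPM males lay close together, so that every pair of groups overlapped. Counts were 959 to 2214 per sample, and the SD within groups on the log2 scale, 0.289, was well above the 0.0391 that counting alone would give. After gestational nPM the log2 fold change of Bdnf was −0.021 ± 0.21 (SE; 95% interval −0.47 to 0.43) in females and 0.11 ± 0.085 (−0.071 to 0.30) in males. Exact permutation tests of Bdnf gave p = 0.905 in females and p = 0.230 in males. Over both sexes the log2 fold change of Bdnf was 0.040 (−0.20 to 0.28; limma, n = 10 against 10, p = 0.733), and the response of males minus that of females was 0.15 (−0.34 to 0.64). The value over both sexes was 0.014 by edgeR and by DESeq2 and −0.016 with sample quality weights. With each sample left out it was −0.016 to 0.10. The sign in females rested on single samples, with −0.14 without control female 1 and 0.10 without control female 2, and without control male 3 the difference in males was 0.18 (exact permutation p = 0.0317). The male minus female difference of the responses was 0.011 without control female 4 and 0.26 without control female 3. All 5 nPM males were above the median of the control males, whose highest value nonetheless exceeded all of them. Males and females had alike medians of Bdnf, at 45.7 and 44.4 CPM, and the male minus female log2 fold change was 0.033 (−0.21 to 0.28; limma, n = 10 against 10, p = 0.780, adjusted p = 0.844). Its sign turned with library totals (−0.012) and upper-quartile factors (−0.0075) in place of TMM. An antisense gene, Gm45346, overlaps Bdnf.

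The level of Bdnf followed that of immediate early genes, which neurons transcribe within minutes of activity. The summed level of the 8 listed genes (Fos, Fosb, Junb, Egr1, Egr2, Arc, Npas4 and Nr4a1, all of which passed the filter, with Arc the most abundant by RPKM) was 169, 608, 162, 525 and 310 CPM in control females, 166, 471, 272, 358 and 278 CPM in nPM females, 116, 377, 327, 184 and 232 CPM in control males and 295, 184, 175, 261 and 365 CPM in nPM males. Control females 2 and 4 were the highest here too, and control females 1 and 3 were among the 4 lowest. After the mean of each group was subtracted from log2 levels, Pearson's r was 0.73 (permutation p = 0.000250, adjusted p = 0.0125) and Spearman's rho 0.73 (permutation p = 0.000420, adjusted p = 0.0285) over 20 samples, r was 0.77 in females and 0.76 in males, and 0.69 without the 2 samples farthest from the median of the list. This was 1 of 100 relations between the 5 genes and 20 marker lists, over which these p-values were adjusted, and 4 had an adjusted p of r under 0.05. The part of these genes in the level of Bdnf was not tested. In bulk tissue fewer cells of a type and less RNA per cell cannot be told apart. The genes most alike to Bdnf in group-centred log2 CPM over 20 samples were Ptgs2 (r = 0.91), Atf3 (r = 0.88) and Atp2a2 (r = 0.84). Ptgs2 encodes an inducible cyclooxygenase, Atf3 a stress-induced transcription factor and Atp2a2 a calcium pump of the endoplasmic reticulum.

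Because Bdnf is transcribed from several promoters, and its level moved with those activity genes, the start regions in RefSeq (GRCm38.p6) were searched for the half-site of the cAMP response element, TGACG, on both strands in the 250 bases before each start. Start regions were matched for 4 of the 5 genes, 7 for Bdnf, 2 for Ntf3, 1 for Ntrk2 and 1 for Ngfr. The letters were in 1 of the 7 Bdnf windows and in 0 of the other 4, beside 5836 of all 32851 windows (17.8%). That window lies on the plus strand of chr2:109692186-109692435, inside the Bdnf gene, overlaps 0 annotated exons and ends just before the first base of the transcript Bdnf-209. It is shown with the match in capitals, as CGTCA on the strand given, which begins 35 bases before the start.
Bdnf-209 upstream: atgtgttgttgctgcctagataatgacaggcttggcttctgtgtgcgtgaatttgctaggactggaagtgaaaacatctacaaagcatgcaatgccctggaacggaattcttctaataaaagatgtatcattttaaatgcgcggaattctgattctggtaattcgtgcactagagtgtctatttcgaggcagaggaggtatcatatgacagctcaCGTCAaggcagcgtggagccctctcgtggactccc
A share of 1 in 7 Bdnf windows is not above the 17.8% of all windows. A match is a description of letters, and counts per gene do not show which start was used.

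Ntf3 (ENSMUSG00000049107.13, chr6:126101412-126166910, minus strand, 1714 exonic bases) encodes the main ligand of TrkC and varied more between animals than any other of the 5 genes. Its level was 3.87, 4.47, 4.65, 5.09 and 4.94 CPM in control females and 5.69, 6.01, 2.64, 7.17 and 3.94 CPM in nPM females. It was 4.51, 7.25, 4.06, 7.42 and 5.36 CPM in control males and 3.21, 7.72, 7.78, 6.00 and 7.80 CPM in nPM males. Control females lay close together, nPM female 3 and nPM male 1 were the lowest of all samples, 4 of 5 nPM males were above the median of the control males, and all groups overlapped. The SD within groups on the log2 scale was 0.451, against 0.112 from counting at 76 to 284 counts per sample. After gestational nPM the log2 fold change of Ntf3 was 0.037 ± 0.24 (SE; 95% interval −0.48 to 0.55) in females and 0.11 ± 0.27 (−0.47 to 0.70) in males. Exact permutation tests of Ntf3 gave p = 0.810 in females and p = 0.611 in males. Over both sexes the log2 fold change of Ntf3 was 0.072 (−0.31 to 0.46; limma, n = 10 against 10, p = 0.701), and the response of males minus that of females was 0.093 (−0.71 to 0.89). Without nPM female 3 the log2 fold change in females was 0.26, and without nPM female 4 it was −0.084. In males it was 0.0073 without control male 3 and 0.35 without nPM male 1, and over both sexes 0.014 and 0.21 without the same samples and 0.16 by edgeR and by DESeq2. By edgeR and DESeq2 it was 0.15 in females and 0.18 in males, and with the replicate block 0.12 in females. With the choroid plexus covariate, chosen after seeing the data, it was −0.014 in females and 0.21 in males and the difference of the responses 0.30. Males had a higher median of Ntf3 than females, 6.62 against 4.79 CPM, and 5 of 10 males exceeded every female. The log2 fold change of 0.34 ± 0.19 (SE; 95% interval −0.045 to 0.73; limma, n = 10 against 10, p = 0.0802, adjusted p = 0.151) did not pass. With sample quality weights it was 0.42 and without nPM male 1 0.47, both with p under 0.05. With the choroid plexus covariate the male minus female value of Ntf3 was lower, at 0.23, and did not pass. Without nPM female 3 that value was also 0.23.

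Ntf3 moved with genes of dentate granule cells, where its RNA is known from the adult hippocampus. The 8 listed genes (Prox1, C1ql2, Tdo2, Dsp, Lct, Plk5, Stxbp6 and Trpc6) all passed the filter, with Stxbp6 the most abundant by RPKM, and their summed level was 335, 292, 464, 394 and 457 CPM in control females, 550, 446, 261, 481 and 367 CPM in nPM females, 221, 412, 317, 378 and 434 CPM in control males and 356, 401, 461, 346 and 482 CPM in nPM males. nPM female 3 and control male 1, with the lowest sums, also had low Ntf3 for their groups, while nPM male 1 had the lowest Ntf3 of its group at a sum of 356 CPM. With group means subtracted, Pearson's r was 0.69 (permutation p = 0.000950, adjusted p = 0.0238) and Spearman's rho 0.60 (permutation p = 0.00661, adjusted p = 0.165) over 20 samples, r was 0.81 in females and 0.59 in males, and 0.59 without the 2 samples farthest from the median of the list. The adjusted p of rho did not pass, and the part of these genes in the level of Ntf3 was not tested. Among males Ntf3 also moved with the choroid plexus sum (r = 0.83; over all 20 samples r = 0.56, permutation p = 0.0102, adjusted p = 0.146, rho = 0.57, permutation p = 0.0101, adjusted p = 0.168), while r was 0.18 in females and 0.51 without the 2 farthest samples. The choroid plexus was not alone in this, as r among males was also 0.82 with the striatum sum, 0.73 with CA2 and 0.70 with meningeal fibroblasts. Among females these were 0.20, −0.16 and −0.085, and over all 20 samples 0.35, 0.37 and 0.33. The genes most alike to Ntf3 were Tdo2 (r = 0.88), Snord53 (r = 0.85) and Pip5k1b (r = 0.83), of which Tdo2, a tryptophan-degrading enzyme, is on the dentate list.

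Ntrk2 (ENSMUSG00000055254.14, chr13:58806596-59133970, plus strand, 13806 exonic bases), the TrkB receptor of Bdnf, was the steadiest of the 5 genes. Its level was 553, 696, 580, 595 and 554 CPM in control females and 580, 539, 569, 553 and 524 CPM in nPM females. It was 561, 558, 578, 579 and 595 CPM in control males and 516, 542, 577, 617 and 608 CPM in nPM males. Control female 2, which also had the highest Bdnf, was the highest of the 20 samples, nPM male 1 was the lowest, and all groups overlapped. The SD within groups was 0.0942 on the log2 scale. After gestational nPM the log2 fold change of Ntrk2 was −0.087 ± 0.078 (SE; 95% interval −0.26 to 0.082) in females and −0.0089 ± 0.060 (−0.14 to 0.12) in males. Exact permutation tests of Ntrk2 gave p = 0.159 in females and p = 0.857 in males. Over both sexes the log2 fold change of Ntrk2 was −0.056 (−0.15 to 0.040; limma, n = 10 against 10, p = 0.240), and the response of males minus that of females was 0.093 (−0.098 to 0.29). The 95% interval of both sexes together corresponded to 0.901-fold to 1.03-fold, the narrowest of the 5 genes. Without control female 2 the log2 fold change over both sexes was −0.026, and in females it was −0.030. The male minus female log2 fold change was −0.0018 (−0.097 to 0.094; limma, n = 10 against 10, p = 0.969, adjusted p = 0.980). The genes most alike to Ntrk2 were Otud1 (r = 0.86), Dpy19l3 (r = 0.84) and Ccdc6 (r = 0.81).

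**Figure D2:**
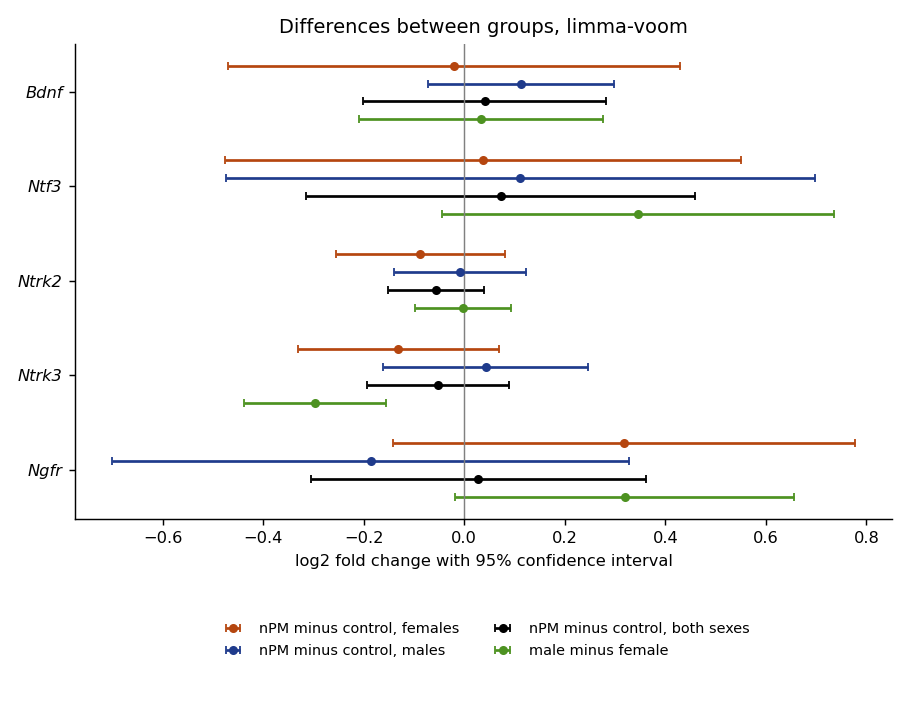
Log2 fold change (x axis) of each gene (y axis) in 4 limma-voom comparisons, with points for the estimate and bars for its 95% confidence interval. The interval of Ntrk3 between males and females lies below 0 at −0.44 to −0.16, and every interval of an exposure comparison holds 0.

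Ntrk3 (ENSMUSG00000059146.12, chr7:78175959-78738012, minus strand, 30170 exonic bases), the TrkC receptor of neurotrophin-3, differed between the sexes. Its level was 418, 478, 557, 476 and 520 CPM in control females and 407, 451, 427, 511 and 415 CPM in nPM females. It was 353, 383, 391, 320 and 421 CPM in control males and 374, 317, 399, 411 and 424 CPM in nPM males. Every one of the 10 males lay below the median of the females, 7 of 10 lay below the lowest female, and the ranges overlapped between 407 and 424 CPM. The male minus female log2 fold change was −0.30 ± 0.068 (SE; 95% interval −0.44 to −0.16), or 0.814-fold, with a limma p of 0.000250 (n = 10 against 10) and an adjusted p of 0.00151. Ntrk3 was the 1 gene of 5 with p under 0.005, beside 6147 of the 19797 genes (31.1%), and the 1 with p under 0.05, beside 9591 (48.4%). At an adjusted p under 0.05 it was again 1 of 5, beside 8005 genes (40.4%), of which 4280 (21.6%) were lower and 3725 (18.8%) higher in males. A share of 1 in 5 is not above that background. The counts of Ntrk3 may hold reads of Gm44607 and 3 other genes annotated within its span. Gm44607 and Gm39038 lie on its own strand and the others on the opposite strand, for which the strand setting of the counting, not given, would matter.

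Several measures of the libraries moved with sex in the same way. Genes of the class TEC, mostly unspliced loci awaiting experimental proof, took 0.458% to 0.853% of counts in females and 0.254% to 0.460% in males, and lincRNA genes 2.47% to 3.55% and 1.43% to 2.15%. Within groups Ntrk3 followed the TEC share: Pearson's r was 0.77 (permutation p = 0.000130, adjusted p = 0.00195) and Spearman's rho 0.75 (permutation p = 0.000230, adjusted p = 0.00345) over 20 samples, r was 0.83 in females and 0.76 in males, and 0.68 without the 2 samples farthest from the median of that share. It was 1 of 15 relations of the 5 genes with the TEC, lincRNA and mitochondrial shares. With the TEC share as a covariate, chosen after seeing the data, the male minus female log2 fold change of Ntrk3 was −0.064 (limma, n = 10 against 10, p = 0.413), and 2534 genes in place of 8005 had an adjusted p under 0.05. With age as a covariate it was 0.021 (limma, n = 10 against 10, p = 0.916), and 8 genes had an adjusted p under 0.05. Neither the ages nor, apart from a range of 0.458% to 0.460%, the TEC shares of the sexes overlapped, so sex cannot be told apart from them. The summed level of 6 endothelial genes also separated the sexes, at 170 to 239 CPM in females and 132 to 158 CPM in males. All of these genes passed the filter, with Slco1a4 the most abundant by RPKM. Within groups Ntrk3 had r = −0.26 (permutation p = 0.276, adjusted p = 0.569; rho = −0.35, permutation p = 0.123) with the endothelial sum, and their part in the difference between the sexes was not tested.

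**Figure D3:**
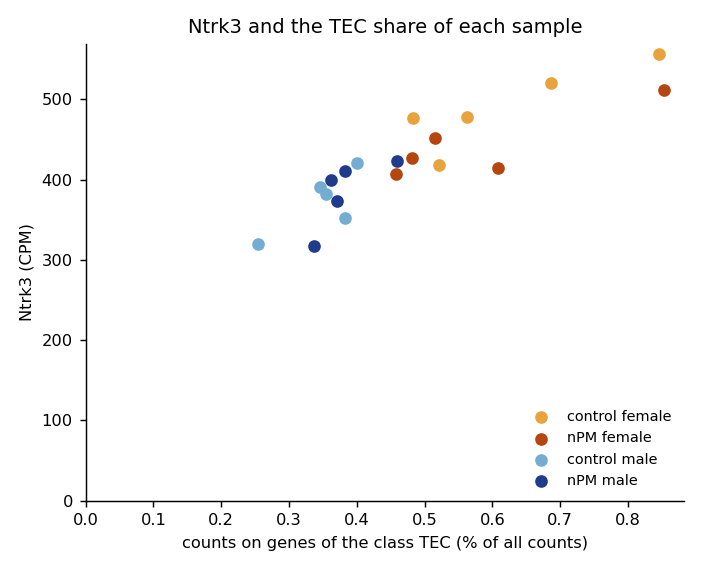
Ntrk3 in CPM (y axis) against the percent of a sample's counts on genes of the class TEC (x axis), with each of the 20 samples as a point coloured by group. Males lie at the lower left and females at the upper right, and the relation also holds within each sex (r = 0.83 and 0.76 in log2 levels with group means subtracted).

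The difference between the sexes also varied with gene length. Ntrk3 and Ntrk2, with 30170 and 13806 exonic bases, are in the longest decile of the tested genes, where 32.8% were lower and 11.5% higher in males at an adjusted p under 0.05 and the median log2 fold change was −0.085. In decile 2, of 821 to 1534 bases, 18.4% were lower and 24.3% higher, with a median of 0.13, while the median of decile 1 was −0.11. Ntrk2 did not share the lower level of Ntrk3 in males, in the same decile. The part of length in the difference of Ntrk3 was not tested.

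**Figure D4:**
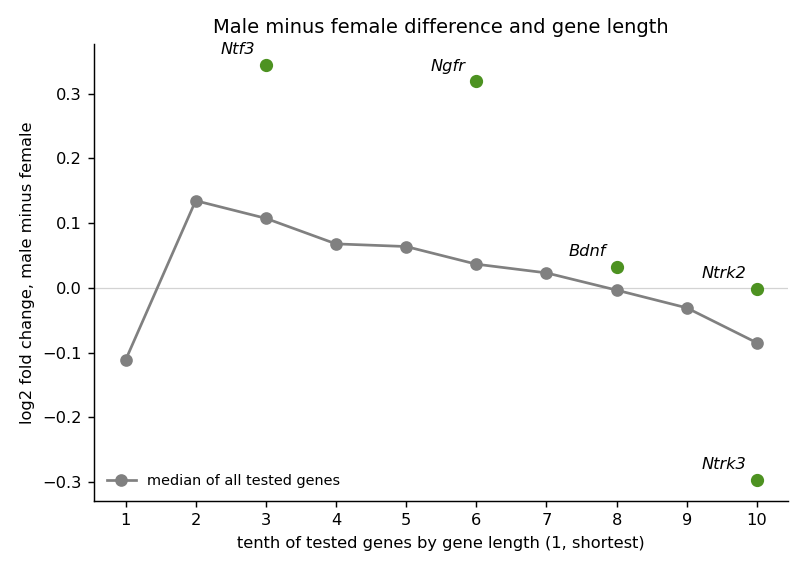
Median log2 fold change, male minus female (y axis), of all tested genes by decile of gene length (x axis, grey line), and the values of the 5 genes (green points). The median is −0.11 in decile 1 and falls from 0.13 in decile 2 to −0.085 in decile 10, where Ntrk3 lies at −0.30 and Ntrk2 at −0.0018.

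After gestational nPM the log2 fold change of Ntrk3 was −0.13 ± 0.092 (SE; 95% interval −0.33 to 0.068) in females and 0.042 ± 0.093 (−0.16 to 0.25) in males. Exact permutation tests of Ntrk3 gave p = 0.151 in females and p = 0.690 in males. Over both sexes the log2 fold change of Ntrk3 was −0.052 (−0.19 to 0.088; limma, n = 10 against 10, p = 0.449), and the response of males minus that of females was 0.19 (−0.087 to 0.46). Of the nPM females 4 of 5 lay below the median of the control females, and without nPM female 4 the difference in females was −0.19 (exact permutation p = 0.0476). Ntrk3 followed the astrocyte genes (Aqp4, Gja1, Aldh1l1, Slc1a3, Slc1a2 and Gfap; 6 of 6 passed the filter, and Slc1a2 was the most abundant by RPKM). Their summed level was 5106, 5932, 6126, 5904 and 6064 CPM in control females, 5225, 5474, 6192, 6092 and 5377 CPM in nPM females, 5554, 5394, 5940, 4570 and 5669 CPM in control males and 5085, 5218, 5453, 5524 and 5879 CPM in nPM males. With group means subtracted, Pearson's r was 0.75 (permutation p = 0.000130, adjusted p = 0.0125) and Spearman's rho 0.71 (permutation p = 0.000570, adjusted p = 0.0285) over 20 samples, r was 0.76 in females and 0.74 in males, and 0.62 without the 2 samples farthest from the median of the list. The group means of the sum were 5827 and 5672 CPM in control and nPM females and 5426 and 5432 CPM in control and nPM males, and the part of this in the difference between the sexes was not tested. Ntrk3 followed the TEC share of counts as closely within groups (r = 0.77). Whether its relation with the astrocyte sum is separate from that with the TEC share was not tested. The genes most alike to Ntrk3 were Celf2 (r = 0.91), Ncoa6 (r = 0.90) and Nfat5 (r = 0.90). Celf2 encodes an RNA-binding protein, Ncoa6 a nuclear receptor coactivator and Nfat5 a transcription factor of osmotic stress.

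Ngfr (ENSMUSG00000000120.6, chr11:95568818-95587735, minus strand, 3446 exonic bases) encodes p75, a receptor that in the adult brain is best known from cholinergic neurons of the basal forebrain, whose axons reach the hippocampus. Its level was 1.41, 1.34, 0.998, 1.11 and 1.20 CPM in control females and 1.59, 1.86, 1.60, 0.931 and 1.48 CPM in nPM females. It was 1.12, 1.64, 1.48, 2.46 and 2.32 CPM in control males and 1.43, 2.02, 1.45, 1.27 and 1.81 CPM in nPM males. Control males 4 and 5 were the highest of the 20 samples, nPM female 4 was the lowest, and 4 of 5 nPM females exceeded every control female. With 17 to 94 counts per sample, counting alone would give an SD of 0.211 on the log2 scale, beside the 0.341 seen within groups. After gestational nPM the log2 fold change of Ngfr was 0.32 ± 0.21 (SE; 95% interval −0.14 to 0.78) in females and −0.19 ± 0.24 (−0.70 to 0.33) in males. Exact permutation tests of Ngfr gave p = 0.183 in females and p = 0.563 in males. Over both sexes the log2 fold change of Ngfr was 0.028 (−0.31 to 0.36; limma, n = 10 against 10, p = 0.863), and the response of males minus that of females was −0.49 (−1.15 to 0.17). These intervals were the widest among the receptors. Without nPM female 4 the difference in females was 0.44 (exact permutation p = 0.0159), and the other samples left out gave no p under 0.05 in that test. That library had the lowest total of the 20 samples (19092067) and the highest TEC and mitochondrial shares (0.853% and 15.7%). Within groups Ngfr had r = −0.55 with the TEC share (permutation p = 0.0123, adjusted p = 0.0615; rho = −0.45, permutation p = 0.0512, adjusted p = 0.256), −0.78 in females and −0.34 in males. This r was −0.32 without the 2 samples farthest from the median of that share. The part of this relation in the level of nPM female 4 was not tested. With sample quality weights the limma p of Ngfr was under 0.05 in females, at 0.42, and in the interaction, at −0.66, and without control male 1 it was so in the interaction, at −0.63. In males the log2 fold change was −0.055 without control male 4 and −0.33 without control male 1. Over both sexes its sign turned, at 0.12 and −0.043 without the same samples and −0.00063 with the choroid plexus covariate. The male minus female log2 fold change was 0.32 ± 0.16 (SE; −0.018 to 0.66; limma, n = 10 against 10, p = 0.0620, adjusted p = 0.123), and 8 of 10 males exceeded the median of the females. It was 0.56 in controls alone, 0.015 with age as a covariate and −0.062 with the TEC share as one.

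Of 6 genes of basal forebrain cholinergic neurons, 4 (Chat, Slc18a3, Lhx8 and Gbx1) had a mean under 0.5 CPM, and the most abundant by RPKM was Ecel1 at 0.776. Ngfr did not rise with the sum of these genes within groups, with r = −0.27 (permutation p = 0.252, adjusted p = 0.569) and rho = −0.32 (permutation p = 0.167, adjusted p = 0.470). This r was −0.34 in females, −0.22 in males and −0.052 without the 2 samples farthest from the median of the list. The genes most alike to Ngfr were Fbxl6 (r = 0.86), Snrpb (r = 0.86) and Gm15427 (r = 0.85), the last a processed pseudogene.

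**Figure D5:**
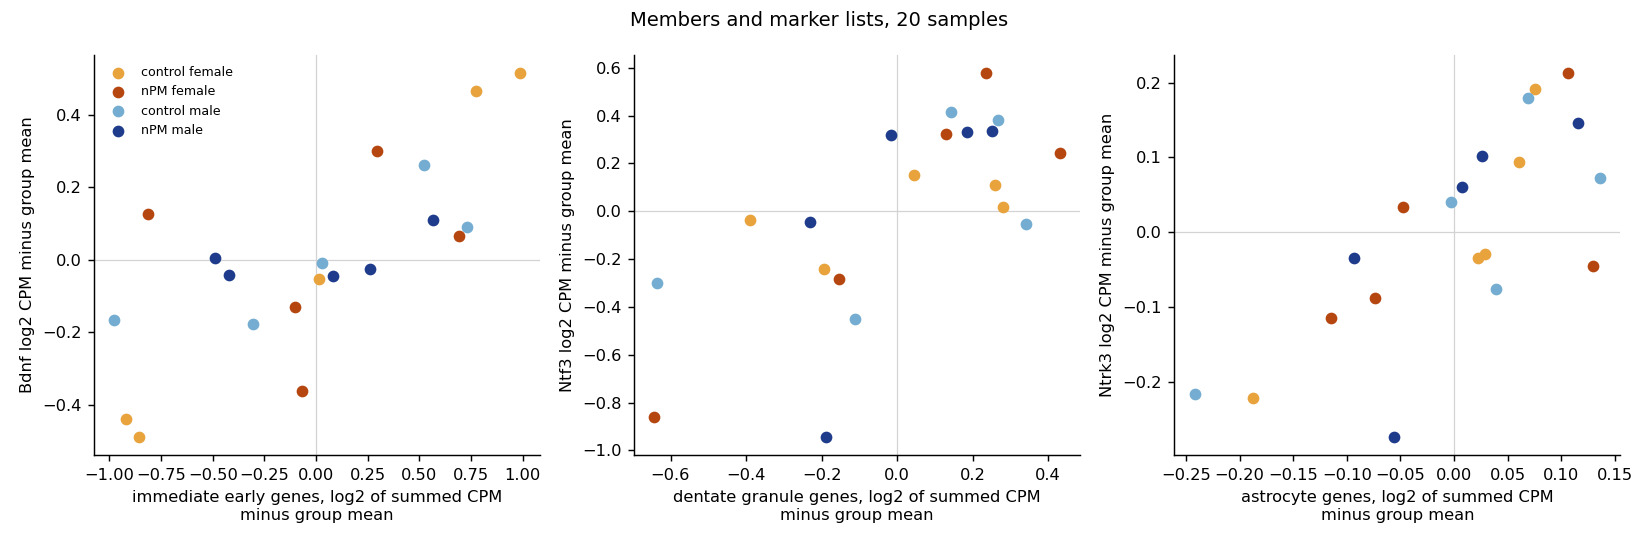
Log2 CPM of 1 gene minus its group mean (y axis) against the log2 of the summed CPM of a marker list minus its group mean (x axis) in 20 samples, coloured by group, for Bdnf with the immediate early genes, Ntf3 with the dentate granule genes and Ntrk3 with the astrocyte genes. Bdnf and Ntrk3 rise with their lists with some samples off the trend, such as 1 nPM female with a low immediate early sum (−0.81) and Bdnf at 0.13, while 1 nPM male and 1 nPM female lie far below the others for Ntf3.

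None of the 10 pairs among the 5 genes had an adjusted p under 0.05. Over these pairs of group-centred log2 CPM in 20 samples, the highest Pearson's r was that of Bdnf and Ntrk2, 0.537 (permutation p = 0.0150, adjusted over the 10 pairs 0.150; rho = 0.442, permutation p = 0.0526, adjusted 0.317). It was 0.383 without the 2 samples farthest from the median of Bdnf, 0.31 without control female 2 alone (permutation p = 0.198), 0.37 with library totals (permutation p = 0.0971), 0.681 in females and 0.149 in males. The lowest was that of Ntrk3 and Ngfr, −0.422 (permutation p = 0.0639, adjusted 0.320; rho = −0.424, permutation p = 0.0633, adjusted 0.317), −0.711 in females, −0.221 in males and −0.300 without the 2 farthest samples. Leaving out control male 1 or 5, nPM female 2 or nPM male 3 or 5 brought the permutation p of this pair under 0.05, down to 0.0061 at r = −0.60 without control male 5, and leaving out control female 3 did so for Bdnf and Ntrk3 (r = 0.47, permutation p = 0.0421). The ligand and receptor pair Ntf3 and Ntrk3 had r = 0.137 (permutation p = 0.563).

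The wider pathway was described by a list of 150 gene names, of which 149 were in the table (Ngfrap1 is an older name of Bex3) and 146 were tested. After nPM, limma gave 0 of 146 a p under 0.005 in each of the 4 exposure fits, edgeR likewise 0, and DESeq2 0 apart from 1 in females, and by limma 4, 4, 2 and 2 had p under 0.05 with both sexes, in males, in females and in the interaction. These were 2.74%, 2.74%, 1.37% and 1.37% of the list, beside 2.1%, 4.28%, 1.99% and 3.79% of all genes. The median log2 fold change of the list was −0.017 with both sexes, beside −0.0059 over all genes, −0.0028 beside −0.0013 in males and −0.022 beside 0.0038 in females. With both sexes the smallest p belonged to Rps6ka2, a ribosomal S6 kinase, at −0.27 ± 0.10 (SE; limma, n = 10 against 10, p = 0.0133). Next were the peptide Crh (−0.74 ± 0.28, SE) and the adaptors Gab2 (−0.16) and Sh2b2 (−0.33). Crh was low, with group means of 0.747 to 1.41 CPM. By the same order of p, the log2 fold changes in males were −0.31 for Rps6ka2, 0.31 for the kinase Mapk7, −0.93 ± 0.37 (SE) for Crh and −0.18 for Hras. In females the first was Npas4, an activity-induced transcription factor that binds Bdnf promoters, at −0.77 ± 0.26 (SE), followed by Sh2b2 (−0.45), Hap1 (−0.36) and the ubiquitin ligase Cbl (−0.18). In the interaction they were Cbl (0.31), Pdk1 (−0.29), Pdpk1 (0.17) and Sorl1 (0.24). All of these had adjusted p-values of 0.963 or higher.

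Between the sexes, 20 of the 146 were higher and 19 lower in males at p under 0.005, and 27 and 25 at an adjusted p under 0.05 (35.6% of the list, beside 40.4% of all genes). The median log2 fold change was 0.013, beside 0.019 over all genes. Of the 55 genes listed for adaptors and signaling, 11 were higher and 12 lower at an adjusted p under 0.05 (41.8%), near the share of all genes. At p under 0.005, which 31.1% of all genes passed, 9 were higher, among them Crk, Nras, Mapk3, Rap1a, Map2k1 and Pik3ca, and 9 lower, among them Plcg1, Eef2k, Rapgef1, Camk2a, Shc2, Shc3, Mtor and Map2k5. Plcg1, the phospholipase that TrkB activates, had a log2 fold change of −0.34 ± 0.048 (SE, adjusted p = 2.31e-05) and Crk one of 0.33 ± 0.050 (adjusted p = 3.84e-05). Pdk1, also higher, is in the mouse the symbol of a mitochondrial pyruvate dehydrogenase kinase and is on the list by its name. Of the 16 listed partners of p75, 15 were tested, and 6 were higher and 0 lower at an adjusted p under 0.05 (40%). Of all genes, 40.4% were called in both directions together and 18.8% as higher in males, and the difference was not tested. At p under 0.005, 5 were higher (Bex3, Bex1, Maged1, Zfp110 and Mapk8) and 0 lower. Of the 17 tested transcription factors upstream of Bdnf, 3 were higher and 3 lower at p under 0.005, which 31.1% of all genes passed. Creb1 (0.35, adjusted p = 3.22e-05), Mef2a and Hdac2 were higher, and Mef2d and the CREB coactivators Crtc1 (−0.58, adjusted p = 0.00115) and Crtc2 were lower. At an adjusted p under 0.05 the share of this list was 35.3%, beside 40.4% of all genes. Of the 20 tested genes of receptor trafficking and decay, 3 were higher and 3 lower at p under 0.005. Rab11a, Nedd4 and Rab5a were higher, and Nedd4l (−0.44, adjusted p = 3.35e-05), Htt and Cbl were lower. At an adjusted p under 0.05 the share of these 20 was 45%, near that of all genes. Of the 14 tested genes of processing and secretion, 2 were higher and 3 lower at an adjusted p under 0.05 (35.7%), the protease genes Pcsk7 and Plat among the latter. Of the 12 tested ligands and co-receptors 0 were higher and 2 lower (16.7%), and of the 14 targets of BDNF 0 were higher and 1 lower (7.14%), among them the co-receptor Sorcs2 (−0.20, adjusted p = 0.00866) and the target Egr3. With age as a covariate 0 of the 146 had p under 0.005, beside 84 of all genes, with the TEC share as one 19 had, beside 2271, and in controls alone 19 had, beside 3676.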

How the data were processed

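Hippocampal RNA of 20 mice was measured by ribosome-depleted RNA-seq (RiboZero Gold). The authors used Trimmomatic for trimming, HISAT2 for alignment (mm10) and featureCounts 1.5.0-p3 for gene counts on Gencode M11, and the deposited counts are whole numbers without normalization. A mean RPKM per gene, also deposited, was recomputed from the counts with a largest difference of 5.09e-11, and RPKM values in the text were recomputed with TMM factors. Strand and multi-mapping settings are not given in the sources used here.

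Genes were kept by filterByExpr (minimum count 10, minimum total 15) over the 4 groups. TMM factors (edgeR 4.0.16) were computed over the samples of each fit, followed by limma-voom (limma 3.58.1, R 4.3.3) with an offset of 0.5 counts. Exposure was fitted over all samples with sex as covariate and within each sex, besides the interaction, and sex was fitted with exposure as covariate. The threshold was p under 0.005, beside a Benjamini-Hochberg adjusted p under 0.05 over 19797 genes. Single genes were compared by exact permutation tests over the 252 groupings of 5 against 5, and correlations by 100000 permutations. Exact p-values are printed without adjustment, and when adjusted over the 10 exact tests the lowest was 0.575. Alternatives were edgeR's quasi-likelihood test, DESeq2 1.42.0, other scalings and filters, quality weights, covariates, and each sample left out. The fits were tested on simulated data.

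The 5 genes and the lists were chosen with earlier results of these data known. Named genes were the 5 in full, related ligands and receptors by level, in each fit the 4 pathway genes of smallest p and any with p under 0.005, and the 3 genes with the highest r for each of the 5. The relations with marker lists and library measures were added after seeing the data, and some genes and 1 marker list that met these rules are not reported here. Within groups, squared differences between pairs of samples averaged 14.1 to 76.7 times counting noise over 40 pairs, so no pair was as alike as counting noise alone would make it. Figures were drawn with matplotlib 3.10.9.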

Additional observations from a re-analysis of the deposited data

How the results depend on the processing

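Alternatives other than leaving out a sample gave 335 values for the tests of the 5 genes and their pairs: 313 kept direction and side of the threshold, 20 turned direction and 2 kept it but lost the threshold. None of those that turned passed a threshold, and 1 of them also lost it: the age covariate, within sexes that do not overlap in age, took the male minus female value of Ntrk3 to 0.021, and the TEC share covariate, chosen after seeing the data, to −0.064, and the cause was not tested. It stayed at −0.30 with a replicate block, although the pairing of replicate numbers was not borne out, with 5 of 30 same-numbered pairs best with their own number, and was −0.27 with the choroid plexus covariate, also chosen after seeing the data.

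With sample quality weights the value was −0.016 for Bdnf (nPM, both sexes), 0.0040 for Ntrk2 (nPM, males) and 0.0094 for Ntrk2 (male minus female). With the choroid plexus covariate the value was −0.00063 for Ngfr (nPM, both sexes) and −0.014 for Ntf3 (nPM, females). With upper-quartile factors the value was 0.0031 for Ntrk2 (nPM, males) and −0.0075 for Bdnf (male minus female). With library totals the value was 0.026 for Ntrk2 (nPM, males), −0.012 for Bdnf (male minus female), 0.026 for Ntrk2 (exact test, males) and 0.37 for Bdnf with Ntrk2 (correlation). With protein-coding genes alone the value was 0.0018 for Ntrk2 (nPM, males) and −0.014 for Bdnf (male minus female). With the edgeR quasi-likelihood test the value was −0.0062 for Bdnf (male minus female). With the DESeq2 Wald test the value was −0.0076 for Bdnf (male minus female). With no filter on low counts the value was 0.0068 for Ntrk2 (male minus female). With the age covariate the value was 0.11 for Ntrk2 (male minus female). With controls alone the value was −0.053 for Bdnf (male minus female). With the TEC share covariate the value was −0.032 for Bdnf (male minus female) and −0.062 for Ngfr (male minus female). The cause was not tested.

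Leaving out each sample in turn gave 700 values, of which 639 kept direction and side of the threshold, 51 turned, 1 lost it and 9 gained it. The ranges of the results that changed and of all other fits of the 5 genes were −0.23 to 0.038 for Bdnf with Ngfr (correlation), 0.31 to 0.60 for Bdnf with Ntrk2 (correlation), 0.086 to 0.47 for Bdnf with Ntrk3 (correlation), −0.018 to 0.10 for Bdnf (male minus female), 0.011 to 0.26 for Bdnf (interaction), −0.14 to 0.10 for Bdnf (exact test, females), 0.060 to 0.18 for Bdnf (exact test, males), −0.016 to 0.10 for Bdnf (nPM, both sexes), −0.14 to 0.10 for Bdnf (nPM, females), 0.061 to 0.18 for Bdnf (nPM, males), 0.24 to 0.38 for Ngfr (male minus female), −0.63 to −0.36 for Ngfr (interaction), 0.19 to 0.44 for Ngfr (exact test, females), −0.043 to 0.12 for Ngfr (nPM, both sexes), 0.24 to 0.44 for Ngfr (nPM, females), −0.33 to −0.055 for Ngfr (nPM, males), −0.030 to 0.32 for Ntf3 with Ntrk2 (correlation), −0.046 to 0.28 for Ntf3 with Ntrk3 (correlation), 0.23 to 0.47 for Ntf3 (male minus female), −0.13 to 0.33 for Ntf3 (interaction), −0.068 to 0.28 for Ntf3 (exact test, females), 0.014 to 0.21 for Ntf3 (nPM, both sexes), −0.084 to 0.26 for Ntf3 (nPM, females), 0.0073 to 0.35 for Ntf3 (nPM, males), −0.0019 to 0.18 for Ntrk2 with Ngfr (correlation), −0.024 to 0.028 for Ntrk2 (male minus female), 0.036 to 0.12 for Ntrk2 (interaction), −0.037 to 0.018 for Ntrk2 (exact test, males), −0.072 to −0.026 for Ntrk2 (nPM, both sexes), −0.11 to −0.030 for Ntrk2 (nPM, females), −0.042 to 0.018 for Ntrk2 (nPM, males), −0.60 to −0.31 for Ntrk3 with Ngfr (correlation), 0.12 to 0.26 for Ntrk3 (interaction), −0.20 to −0.098 for Ntrk3 (exact test, females), −0.018 to 0.11 for Ntrk3 (exact test, males), −0.084 to −0.024 for Ntrk3 (nPM, both sexes), −0.19 to −0.086 for Ntrk3 (nPM, females) and −0.018 to 0.10 for Ntrk3 (nPM, males). The male minus female value of Ntrk3 was −0.33 to −0.26 and kept its threshold throughout.

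Counts of genes with p under 0.005 moved more than 1.5 times. With both sexes they were 43 by DESeq2, 71 with no filter and 53 with quality weights. In males they were 113 by DESeq2, 104 with no filter, 66 with library totals and 73 with the choroid plexus covariate, and in females 55 by DESeq2, 75 with no filter and 44 with quality weights. The interaction had 66 by edgeR, 89 by DESeq2, 149 with no filter and 20 over protein-coding genes. Without 1 sample the counts were 17 to 47 with both sexes, 23 to 78 in males, 10 to 48 in females and 24 to 77 in the interaction. The male minus female fit had 84 with the age covariate, 3676 in controls alone, which are fewer samples, and 2271 with the TEC share covariate. Pathway genes rose from 0 to 1 with both sexes under the choroid plexus covariate, in females by DESeq2 and with the replicate block, and without nPM female 1 (both sexes), nPM male 4 (males) or control female 1 (females), and the cause was not tested.

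Depth limits Ngfr most, at 17 to 94 counts per sample. With 5 animals in each group, exposure differences within the intervals given cannot be told from none. Gene counts do not separate transcripts, and sex, age and EdU cannot be told apart.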

Other observations

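Ntf5, the gene of neurotrophin-4, had few counts, and they followed the choroid plexus. It had 1 to 5 counts in control females, 0 to 19 in nPM females, 2 to 31 in control males and 0 to 15 in nPM males. With group means subtracted from log2 levels, Pearson's r was 0.72 (permutation p = 0.000250, adjusted p = 0.00600) and Spearman's rho 0.71 (permutation p = 0.000610, adjusted p = 0.0146) over 20 samples, r was 0.51 in females and 0.87 in males, and 0.60 without the 2 samples farthest from the median of the list. It was 1 of 120 relations of other ligand and receptor genes with the 20 marker lists, chosen after seeing the data, and Ntf5 also went with the CA2 list (r = 0.66, permutation p = 0.00151, adjusted p = 0.0226; rho = 0.72, permutation p = 0.000480, adjusted p = 0.0144; r = 0.63 without the 2 farthest samples). For Ntf5 and the 6 striatum genes, Pearson's r was 0.65 (permutation p = 0.00211, adjusted p = 0.0281) and Spearman's rho 0.59 (permutation p = 0.00758, adjusted p = 0.0538) over 20 samples, r was 0.72 in females and 0.77 in males, and 0.60 without the 2 samples farthest from the median of the list. The part of these tissues in the Ntf5 counts was not tested.

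The strongest of these 120 relations was that of Sorcs3 with the 6 CA1 genes: Pearson's r was 0.84 (permutation p = 1.00e-05, adjusted p = 0.00120) and Spearman's rho 0.79 (permutation p = 9.00e-05, adjusted p = 0.0108) over 20 samples, r was 0.80 in females and 0.87 in males, and 0.78 without the 2 samples farthest from the median of the list. The p of r is the smallest that 100000 permutations can give. The next by size of r was that of Sort1 with the 6 immature neuron genes, of which Neurod4 had a mean under 0.5 CPM. There, Pearson's r was −0.77 (permutation p = 7.00e-05, adjusted p = 0.00400) and Spearman's rho −0.72 (permutation p = 0.000460, adjusted p = 0.0144) over 20 samples, r was −0.68 in females and −0.88 in males, and −0.74 without the 2 samples farthest from the median of the list. Sort1 also went with the 6 CA3 genes: Pearson's r was 0.74 (permutation p = 0.000240, adjusted p = 0.00600) and Spearman's rho 0.74 (permutation p = 0.000360, adjusted p = 0.0144) over 20 samples, r was 0.89 in females and 0.53 in males, and 0.68 without the 2 samples farthest from the median of the list. For Sort1 and the 6 astrocyte genes, Pearson's r was 0.67 (permutation p = 0.00125, adjusted p = 0.0214) and Spearman's rho 0.66 (permutation p = 0.00191, adjusted p = 0.0327) over 20 samples, r was 0.59 in females and 0.75 in males, and 0.67 without the 2 samples farthest from the median of the list. For Sorcs1 and the 6 genes of GABAergic interneurons, Pearson's r was 0.65 (permutation p = 0.00115, adjusted p = 0.0214) and Spearman's rho 0.61 (permutation p = 0.00507, adjusted p = 0.0530) over 20 samples, r was 0.61 in females and 0.71 in males, and 0.49 without the 2 samples farthest from the median of the list.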
